A study of Mus musculus with 14 samples.

Results

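The H3WT cells of this series gave 1 list of Suz12 peaks and 2 lists of H3K27me3 peaks, and what follows sets the Suz12 sites against the mark: how many marked regions held a Suz12 site, how far the mark ran past each site, and which marked regions lay far from any site. Every peak of these 3 lists was used, 73888 of the 100123 peaks of the series: 631 Suz12 peaks, 13358 H3K27me3 peaks in replicate 1 and 59899 in replicate 2. The lists came from ChIP-seq, sequencing of immunoprecipitated chromatin, of mouse cells labelled PDGF neural stem cells, which the series' design text describes as mouse DIPG cells. DIPG is diffuse intrinsic pontine glioma, a childhood tumour of the brainstem. The H3WT cells express wild-type histone H3.3, and the K27M cells express H3.3 with methionine in place of the lysine that carries the mark. Cells of either genotype were grown in neural stem cell medium and received DMSO, the solvent, or 3 µM EPZ6438 (EPZ), an inhibitor of Ezh2, for 12 days. H3WT DMSO had 2 H3K27me3 libraries and 1 library each of Suz12 and Ring1b. H3WT EPZ, K27M DMSO and K27M EPZ had 2 H3K27me3 libraries each, and K27M DMSO also had 1 library each of Suz12 and Ring1b. The labels do not say whether the cells were 1 clone or whether replicates were separate cultures, so the spread between libraries may be technical.

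H3K27me3, methylation of lysine 27 of histone H3, is a mark of repressed developmental genes. It is laid down by Polycomb repressive complex PRC2, in which Ezh2 is the catalytic subunit, Suz12 holds the complex together and Eed binds the finished mark and stimulates the enzyme. In mammals PRC2 is known to gather at CpG-rich promoters of silent developmental regulators, and the mark is known to spread from such places over neighbouring chromatin. A second complex, PRC1, contains the ubiquitin ligase Ring1b and often lies on the same genes.

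Promoters on either side of the comparison are shown here because a Suz12 site and the mark can be read against their sequence. Each line is the 250 bases before a RefSeq transcription start (GRCm38.p6), 5′ to 3′ on the gene's strand, with every CpG in capitals. The first 3 lay under a Suz12 peak, and the last 3 were marked in both H3K27me3 libraries with no Suz12 peak within 100 kb. They were chosen, after their values were seen, to span CpG-dense and CpG-poor starts of both kinds.
Six6 (chr12:72939632-72939881, plus strand): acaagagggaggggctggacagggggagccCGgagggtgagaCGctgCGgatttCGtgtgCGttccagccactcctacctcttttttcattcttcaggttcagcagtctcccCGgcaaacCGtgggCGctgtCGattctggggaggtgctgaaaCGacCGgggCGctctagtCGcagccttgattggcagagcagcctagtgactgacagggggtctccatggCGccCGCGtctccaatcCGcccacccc
Six2 (chr17:85688255-85688504, minus strand): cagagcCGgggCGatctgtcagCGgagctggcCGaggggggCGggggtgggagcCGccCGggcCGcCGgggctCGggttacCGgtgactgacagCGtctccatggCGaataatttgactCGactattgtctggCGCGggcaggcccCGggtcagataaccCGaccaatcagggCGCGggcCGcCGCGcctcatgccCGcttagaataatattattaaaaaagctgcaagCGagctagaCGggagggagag
Pax2 (chr19:44746351-44746600, plus strand): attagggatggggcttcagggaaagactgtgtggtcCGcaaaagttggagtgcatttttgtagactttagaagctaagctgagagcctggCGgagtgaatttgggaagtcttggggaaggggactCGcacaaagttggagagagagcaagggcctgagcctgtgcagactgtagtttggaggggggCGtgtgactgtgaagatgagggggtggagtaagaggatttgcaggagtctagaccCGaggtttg
Nkx6-2 (chr7:139582798-139583047, minus strand): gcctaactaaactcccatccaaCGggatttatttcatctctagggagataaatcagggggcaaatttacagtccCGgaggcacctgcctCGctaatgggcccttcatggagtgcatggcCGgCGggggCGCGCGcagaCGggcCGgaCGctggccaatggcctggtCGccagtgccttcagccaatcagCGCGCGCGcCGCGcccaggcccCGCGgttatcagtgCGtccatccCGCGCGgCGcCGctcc
Otx2 (chr14:48667645-48667894, minus strand): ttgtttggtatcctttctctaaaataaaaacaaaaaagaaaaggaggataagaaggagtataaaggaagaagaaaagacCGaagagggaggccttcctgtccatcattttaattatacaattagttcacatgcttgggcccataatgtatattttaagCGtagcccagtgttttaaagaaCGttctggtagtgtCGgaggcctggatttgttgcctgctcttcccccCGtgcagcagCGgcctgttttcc
Tcf21 (chr10:22820144-22820393, minus strand): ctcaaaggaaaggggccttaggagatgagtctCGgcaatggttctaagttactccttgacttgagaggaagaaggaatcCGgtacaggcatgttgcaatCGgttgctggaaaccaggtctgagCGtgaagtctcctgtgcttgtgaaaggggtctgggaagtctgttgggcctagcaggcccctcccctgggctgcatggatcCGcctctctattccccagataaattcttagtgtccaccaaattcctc
All 6 genes encode transcription factors of embryonic patterning. The Six6, Six2 and Pax2 stretches held 17, 26 and 5 CpGs, and those of Nkx6-2, Otx2 and Tcf21 held 26, 6 and 5. The ratio of observed to expected CpG was 0.691 for Six6, 1.02 for Six2 and 0.391 for Pax2, against 0.982 for Nkx6-2, 0.55 for Otx2 and 0.293 for Tcf21.

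Nearly all Suz12 sites lay under the mark, while few marked regions held a Suz12 site. The mark covered 630 of 631 Suz12 sites in replicate 1 (99.8%, exact Clopper-Pearson 95% interval 99.1 to 100) and 631 of 631 in replicate 2. It covered 620 and 629 of the sites along their whole width. In the other direction, 404 of 13358 H3K27me3 peaks of replicate 1 had a Suz12 site (3.02%, 2.74 to 3.33), as did 396 of 59899 in replicate 2 (0.661%, 0.598 to 0.729), which gives 1.84% ± 1.67 (SD, n = 2). The number of peaks with a site was thus close in both libraries, and the shares differ with the number of peaks listed in all. These intervals cover the counting of peaks only. The number of reads behind each list is unknown, and a marked region without a Suz12 site is one where the authors listed none.

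The exception in replicate 1 was a site of 1.08 kb at Bmi1 (chr2:18677545-18678626), which encodes a subunit of PRC1. The nearest H3K27me3 peak of replicate 1 was 18.8 kb away, whereas a peak of replicate 2 lay over the site. Within 10 kb of the ends of Bmi1, 0 kb was marked in replicate 1 and 4.55 kb in replicate 2, and Ring1b also had a peak there. Neither H3WT EPZ library had an H3K27me3 peak at an end of Bmi1.

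Marked regions with a Suz12 site were wide. Their median width was 12.8 kb in replicate 1 and 20.2 kb in replicate 2, against 1.75 and 1.97 kb for regions without a site, so the ratio of the medians was 7.34 and 10.3, or 8.8 ± 2.08 (SD, n = 2). The regions with a site made up 17.1% of the marked length in replicate 1 and 5.23% in replicate 2, or 11.2% ± 8.42 (SD, n = 2). A single Suz12 site was present in 308 and 300 of these regions and several sites in 96 of each library. A wide region has more room for a site than a narrow one, so the shares were also taken within widths.

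Among peaks of 1 to 2 kb, 4 of 7792 in replicate 1 and 0 of 30525 in replicate 2 had a Suz12 site, and the latter allows a share of up to 0.0121% (exact interval). From 5 to 10 kb the shares were 10.4% and 0.735%. From 20 to 50 kb they were 60.1% (116 of 193) and 17.1% (145 of 849). At 50 kb and over they were 80% (12 of 15, 51.9 to 95.7) and 45.8% (54 of 118, 36.6 to 55.2). The share was higher in each wider class in both libraries, and in each class it was higher in replicate 1. By quintile of width, 394 of the 404 peaks with a site in replicate 1 and 392 of the 396 in replicate 2 fell in the widest quintile, which began at 3.86 and 4.47 kb.

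**Figure D1:**
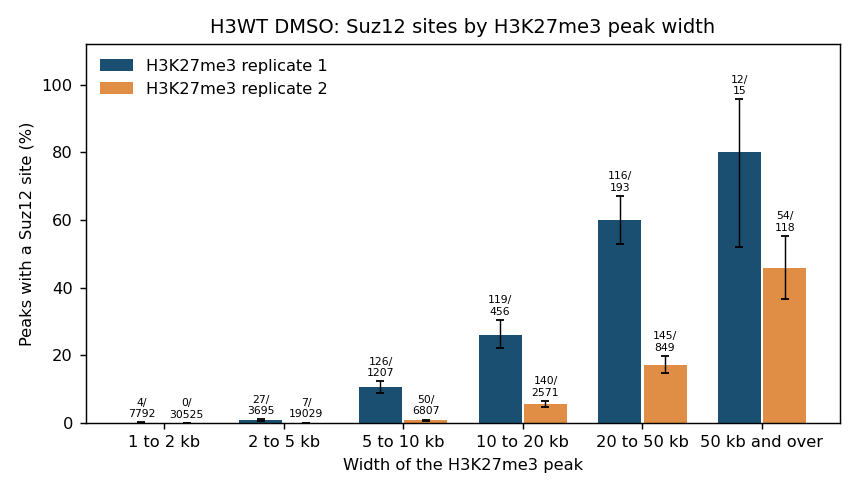
Share of H3WT DMSO H3K27me3 peaks with a Suz12 site (vertical axis, %) by width of the H3K27me3 peak (horizontal axis) in replicate 1 and replicate 2. Bars are shares, error bars exact 95% intervals, and the fractions above them are peaks with a site over all peaks; the share reached 80% and 45.8% in the widest class.

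The regions with the most Suz12 sites were the Hox clusters, whose homeodomain factors set position along the body axis. The Hoxc cluster, with 24 Suz12 sites, lay under 1 H3K27me3 peak in either library, which measured 233.9 kb in replicate 1 (chr15:102894086-103127943) and 244.1 kb in replicate 2. Those sites covered 82.3 kb, or 35.2% of the replicate 1 peak. The Hoxd cluster with its neighbour Evx2, another homeobox gene, had 14 sites in a peak that was 150.1 kb wide in replicate 1 and 234.6 kb in replicate 2. The Hoxb cluster had 12 sites in a peak of 113.5 and 135.4 kb, and the posterior Hoxa genes with Evx1 had 8 sites in one of 129.5 and 164.5 kb. The region outside the Hox clusters with as many was Zdbf2, a paternally expressed imprinted gene, with 8 sites in a peak of 60.1 and 86.5 kb (chr1:63241377-63301445 in replicate 1). In the Hox clusters and at Zdbf2 alike, less of the region was under Suz12 in replicate 2, where the same sites sat in a longer peak.

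The mark usually ran some kilobases past the Suz12 site on each side. For each marked peak with a site, the extension was the distance from the outermost Suz12 edge to the end of the peak, 1 value to the left and 1 to the right. Its median was 4.2 kb in replicate 1 (808 sides, quartiles 2.44 and 7.78 kb) and 7.64 kb in replicate 2 (792 sides, quartiles 4.17 and 13.1 kb), or 5.92 kb ± 2.43 (SD, n = 2). Left and right differed little, with medians of 4.02 and 4.25 kb in replicate 1 and 7.88 and 7.54 kb in replicate 2. Within a peak the sides were unequal: the shorter had a median of 2.99 kb and the longer 5.62 kb in replicate 1, and 5.48 and 10.5 kb in replicate 2. Suz12 reached past the end of the mark on 16 sides in replicate 1 and 3 in replicate 2. More than 20 kb of mark lay beyond the site on 25 sides (3.09%) and 102 sides (12.9%).

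To compare libraries at the same places, Suz12 sites that shared an H3K27me3 peak in either library were joined into 395 loci, 299 with 1 site and 96 with several. Of the 394 loci marked in both libraries, 392 had the longer summed extension in replicate 2. The order of loci was nevertheless much alike, with a Spearman rho of 0.861 and a Pearson r of 0.796 across the 394 loci, which share the same Suz12 edges in both libraries. The same side was the longer in both libraries at 293 loci. Across 298 loci with 1 site, the width of the Suz12 peak and the summed extension had a rho of 0.364 and an r of 0.406. Loci are not independent replicates, so these are descriptions.

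At 152 loci with a single direction of transcription, the mark could be placed relative to the gene. The median extension was 3.65 kb upstream and 3.71 kb downstream in replicate 1, and 6.41 and 6.33 kb in replicate 2. The downstream side was the longer at 78 of these loci in replicate 1 (51.3%, 43.1 to 59.5) and at 82 in replicate 2 (53.9%, 45.7 to 62). Neither interval leaves out an even split.

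Outward from the Suz12 edges, the share of the 790 locus sides under the mark fell with distance. In replicate 1 it was 96.1% at 1 kb, 47.6% at 5 kb, 26.2% at 10 kb and 7.85% at 50 kb. In replicate 2 it was 98.5%, 73.4%, 52.7% and 22.4% at the same distances. At 100 kb, 7.09% and 17.6% of sides were under a peak, which may belong to another marked region.

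**Figure D2:**
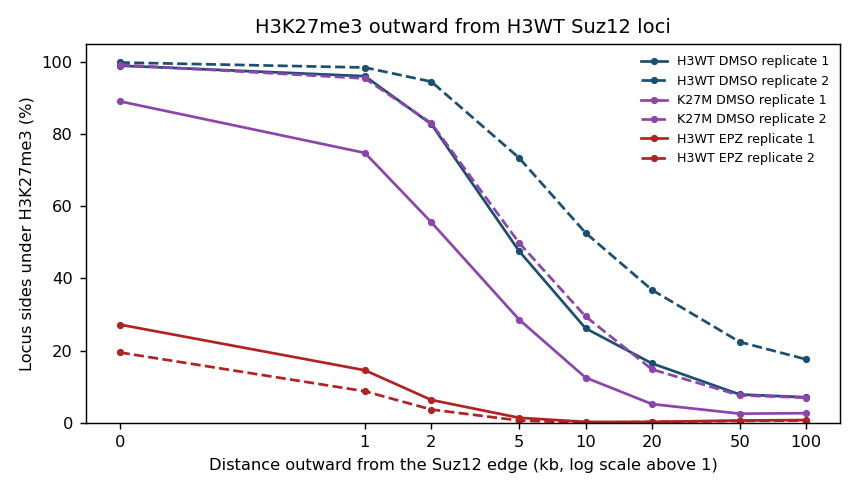
Share of the 790 sides of H3WT Suz12 loci under an H3K27me3 peak (vertical axis, %) at distances outward from the Suz12 edge (horizontal axis, kb, log scale above 1 kb), one line per H3K27me3 library of H3WT DMSO, K27M DMSO and H3WT EPZ. At 5 kb the H3WT DMSO lines stand at 47.6% and 73.4% and the EPZ lines at 1.39% and 0.633%.

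The longest extension was at Six6, a homeobox gene of eye and pituitary development. Its Suz12 peak of 11.8 kb (chr12:72935673-72947441) had 91.5 kb of mark to the left in replicate 1 and 92 kb in replicate 2, so that both libraries placed the left end at nearly the same position. Farther to the right, from 94.6 to 110.1 kb counted from the middle of the site, lay a second Suz12 peak. It was under a separate H3K27me3 peak in either library. From the Six6 site the mark ran 14.3 kb to the right in replicate 1 and 53.7 kb in replicate 2, where short gaps separated it from the next peaks. Such gaps make a called extension shorter than the marked neighbourhood: joining H3K27me3 peaks at most 3 kb apart moved the median side to 5.44 kb (replicate 1) and 10.3 kb (replicate 2) over all peaks with a site.

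Other loci among the 10 with the longest extension were as follows. At Nkx2-3, a homeobox gene of spleen and gut, the mark ran 33.6 and 67.9 kb to the left in replicates 1 and 2 and 7.8 and 9.58 kb to the right. Fezf2, a zinc-finger factor of cortical projection neurons, had a Suz12 peak of 3.92 kb with 22.1 and 33.3 kb of mark to its left and 10.9 and 61.8 kb to its right. At Otp, a homeobox gene of hypothalamic neurons, 7.79 and 19.5 kb lay to the left and 29.3 and 63.6 kb to the right. The same rule of longest summed extension also took the Hoxc and Hoxd clusters, Zic4, Cbfa2t3, Aldh1a2 and Twist1, with summed extensions, averaged over both libraries, between 52.8 and 85.8 kb. Over all loci the median of this sum was 13 kb. At Nkx2-3, Otp and the Hoxc cluster the longer side was the same in both libraries, whereas at Fezf2 it was the left in replicate 1 and the right in replicate 2.

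Of the 6 loci with the most unequal sides, the libraries differed most at Hs3st6, which encodes a heparan sulfate sulfotransferase. The mark ran 2.13 kb to the right of its Suz12 peak in replicate 1 and 91.9 kb in replicate 2. In the map of these loci, replicate 1 has several separate peaks over the stretch that replicate 2 has as 1 peak. The 10 shortest extensions were at Shisa6, Pcdh17, Adra2a, Smad6, Shisa8, Pde8a, Tmem163, Bmp6, Eif3f and Grin2d. At Shisa6, the site reached past the mark by 1.06 kb on the left in replicate 1, written as an extension of -1.06 kb, and the mark reached 1.04 kb past the site in replicate 2. At Smad6, an inhibitory Smad of Bmp signalling, the sides measured 1.5 and 0.238 kb in replicate 1 and 3.02 and 0.75 kb in replicate 2. At none of these 10 did the EPZ libraries have a peak on the Suz12 site, and of all 394 loci marked in both DMSO libraries 225 (57.1%) had no EPZ peak.

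**Figure D3:**
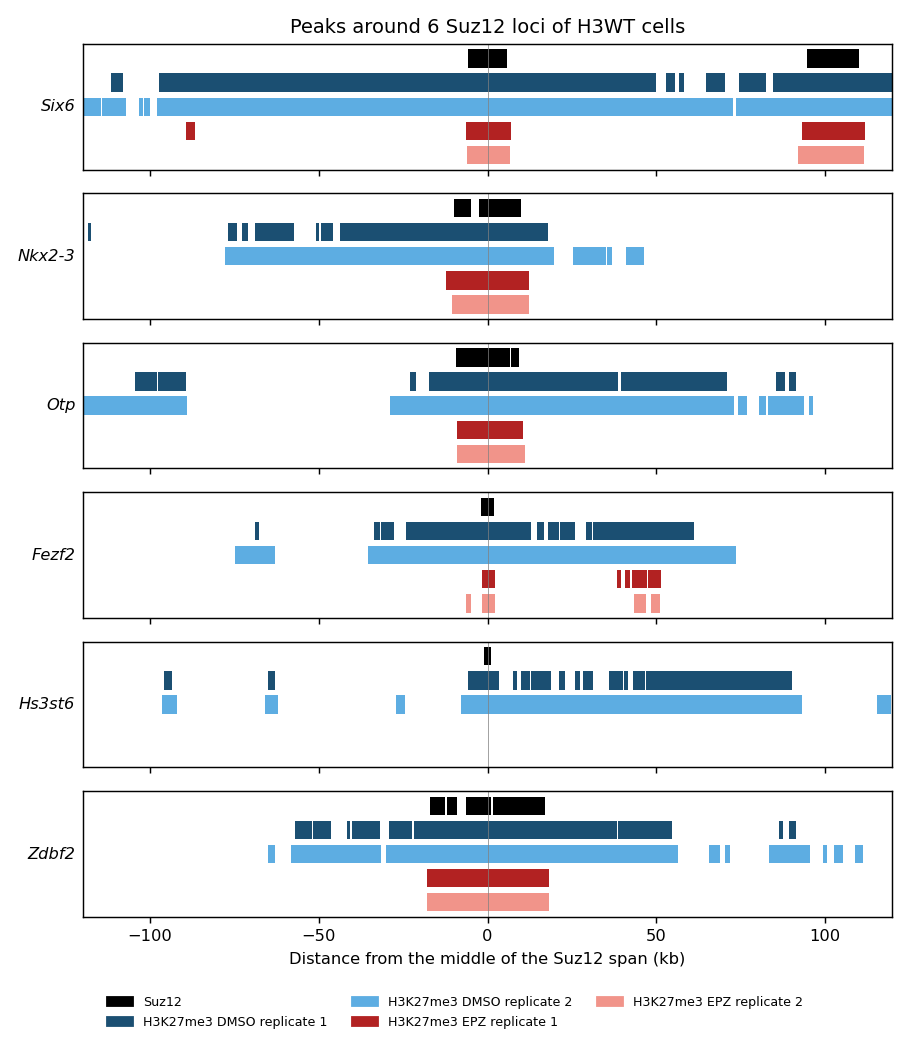
Peaks around 6 Suz12 loci of H3WT cells (rows, named by gene) by distance from the middle of the Suz12 span (horizontal axis, kb), with Suz12 in black, H3K27me3 in DMSO in dark and light blue and H3K27me3 under EPZ in dark and light red for replicates 1 and 2. At Six6 the DMSO peaks run 91.5 and 92 kb past the site on the left, while the EPZ peaks on the site end 0.584 and 0.072 kb past it. A further peak of EPZ replicate 1 lies far to the left of the Six6 site, and EPZ peaks of both libraries lie over a second Suz12 peak to its right.

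Under EPZ, the mark that was still called on Suz12 sites ended close to the Suz12 edges. An H3K27me3 peak lay on 365 of the 631 H3WT Suz12 sites in EPZ replicate 1 and on 338 in EPZ replicate 2. Read from the other side, 199 of 278 (71.6%) and 200 of 271 (73.8%) EPZ peaks held a Suz12 site mapped in DMSO. The extension was compared at the 121 loci where a peak reached the outermost Suz12 sites on both sides in all 4 H3WT libraries, which leaves out loci such as Hoxd where an EPZ peak missed an outer site. There the median side measured 6.79 and 11.4 kb in DMSO and 0.575 and 0.136 kb under EPZ. Both EPZ values were below both DMSO values, by 6.22 and 11.3 kb between libraries of the same number. The exact two-sided permutation test over libraries gave p = 0.333, the smallest that 2 libraries against 2 allow. The EPZ lists were also short, and their depth is unknown.

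At Six6 the EPZ peaks on the site extended 0.584 and 1.11 kb past it in EPZ replicate 1 and 0.072 and 0.788 kb in EPZ replicate 2. EPZ replicate 1 also had a separate peak from -89.3 to -86.7 kb, counted from the middle of the site with left as negative. It lay within the DMSO mark and away from any listed Suz12 site. At Otp the left side was -0.231 and -0.323 kb and the right 1.09 and 1.62 kb, so the called mark matched the Suz12 span to within 2 kb. Fezf2 had EPZ peaks ending within 1 kb of its Suz12 edges, and further EPZ peaks lay away from any listed Suz12 site, to the right in both libraries and to the left in EPZ replicate 2. The 146 loci with an EPZ peak anywhere in their Suz12 span in both libraries had a median Suz12 length of 7.22 kb, and 82 of them had several sites. The 225 loci with no EPZ peak had a median of 1.96 kb, and 9 had several sites. Ring1b had a peak at 93.2% of the former and 54.7% of the latter. Whether Suz12 length or signal strength bears on this was not tested.

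In K27M cells, H3K27me3 was called on 603 and 628 of the H3WT Suz12 sites. At the 367 loci under the mark in all 4 DMSO libraries, the median side was 4.34 and 8.13 kb in H3WT cells and 2.45 and 4.9 kb in K27M cells. The groups overlapped, since replicate 2 of K27M was longer than replicate 1 of H3WT, and the exact two-sided permutation test gave p = 0.667. Within the same replicate number the H3WT median was longer by 1.89 and 3.23 kb. The K27M Suz12 list had 1252 peaks, and they overlapped 469 of the 631 H3WT sites. Of the 764 K27M Suz12 peaks with none in H3WT, 734 (96.1%) and 762 (99.7%) lay under H3WT H3K27me3. With 1 Suz12 library per genotype, no test of this difference was possible.

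Most marked regions lay far from any Suz12 site. In replicate 1, 11261 peaks (84.3%, 83.7 to 84.9) were over 100 kb from the nearest Suz12 peak, and in replicate 2, 56248 (93.9%, 93.7 to 94.1), or 89.1% ± 6.79 (SD, n = 2). Over 1 Mb away lay 60% and 73.8%. Far peaks were about as narrow as all H3K27me3 peaks, with medians of 1.74 and 1.97 kb against 1.78 and 1.98 kb. They made up 70.8% and 89.1% of the marked length. The X chromosome had no Suz12 peak, and all its H3K27me3 peaks, 2305 in replicate 1 and 16453 in replicate 2, count as far. On the autosomes alone, 81% and 91.6% of peaks were far. The Suz12 list is short, with 631 peaks, and the share of the genome over 100 kb from them was not computed. Whether marked regions lay farther from Suz12 than the genome at large was therefore not tested.

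Peaks without a Suz12 site, far ones included, were mostly away from gene starts. A start of a protein-coding gene lay within 1 kb of 10.6% of far peaks in replicate 1 and 5.26% in replicate 2, against 63.9% and 66.2% of peaks with a Suz12 site. A far peak overlapped a protein-coding gene in 45.6% and 33.6% of cases, and a peak with a site in 93.1% and 94.2%. All peaks without a site were close to the far peaks, with 10.1% and 5.26% at starts and 44.3% and 33.8% overlapping a gene. Peaks with a site were wider, by the medians above, and the part of width in these shares was not tested. Of the 208 peaks of replicate 1 that were at least 20 kb wide, 65 were far from Suz12, and of 967 in replicate 2, 716 were.

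The widest far region shared by both libraries was at Iqch on chromosome 9 (chr9:63472801-63528901), 56.1 kb wide and 322.1 kb from the nearest Suz12 peak. Next were 4 regions with no protein-coding gene within 10 kb: chr6:99936045-99990367, chr9:61477297-61529374, chr7:62204477-62254034 and chr6:100060868-100109520. The widest of these 4 was 54.3 kb. The sixth was at Thsd4 (chr9:60289393-60336467), a thrombospondin-type matrix gene, 1466 kb from Suz12. Of these 6 regions, Thsd4 alone was under a peak in both H3WT EPZ libraries, and all 6 were marked in both K27M DMSO libraries. The Iqch region and the chromosome 7 region also had a K27M Suz12 peak and an H3WT Ring1b peak. The Thsd4 region had an H3WT Ring1b peak and no K27M Suz12 peak. For comparison, the 65 far peaks of at least 20 kb in replicate 1 held K27M H3K27me3 in 93.85% (K27M replicate 1) and 98.5% (K27M replicate 2). They held an EPZ peak in 23.1% (EPZ replicate 1) and 15.4% (EPZ replicate 2), Ring1b in 53.85% and K27M Suz12 in 47.7%.

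Among wide regions of like class, those with and without a Suz12 site differed in the other libraries. Of replicate 1 peaks of at least 20 kb, Ring1b had a peak in 96.9% of 128 with a site and 58.8% of 80 without. K27M Suz12 had a peak in 92.2% and 46.2%. An H3WT EPZ peak of replicate 1 was present in 85.2% (109 of 128) and 23.8% (19 of 80), and one of EPZ replicate 2 in 82% and 16.2%. In replicate 2 of the mark, EPZ replicate 1 peaks were in 71.9% of 199 wide regions with a site and 3.65% of 768 without, and Ring1b peaks in 91% and 19.4%. Of the 80 wide regions without a site in replicate 1, K27M H3K27me3 was called in 95% (K27M replicate 1) and 98.8% (K27M replicate 2). Of the 768 in replicate 2 it was called in 43% and 94.1%, so the K27M libraries differed there. The regions are not replicates, and the exact intervals in the plot of wide regions cover counting only. The part of width within this class in these shares was not tested.

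**Figure D4:**
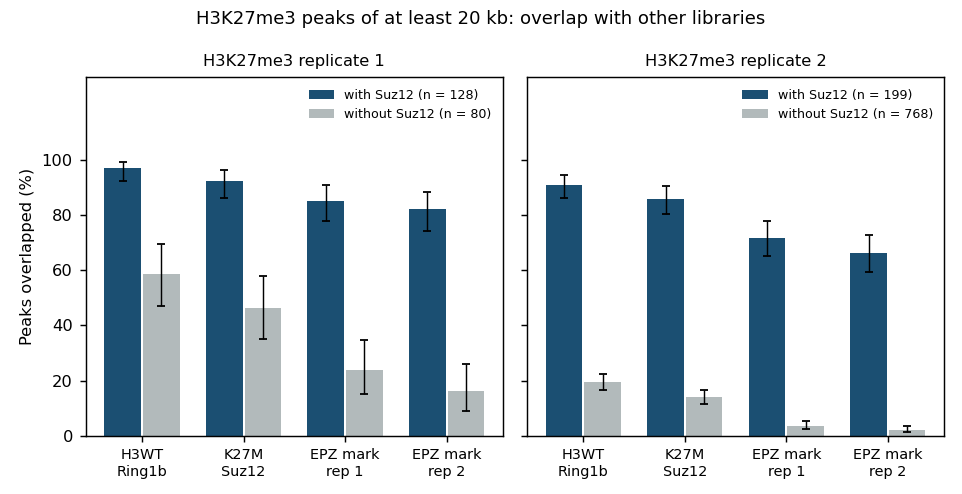
Share of H3K27me3 peaks of at least 20 kb (vertical axis, %) overlapped by a peak of H3WT Ring1b, K27M Suz12 or H3WT EPZ H3K27me3 (horizontal axis), for peaks with and without an H3WT Suz12 site, in H3K27me3 replicate 1 (left) and replicate 2 (right). Bars are shares with exact 95% intervals; in all 4 comparisons of both panels the bar with Suz12 is the higher, for example 85.2% against 23.8%.

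At the level of genes, 369 of 21631 protein-coding genes (1.71%) had a Suz12 peak within 1 kb of a gene end, and 2303 (10.6%) were marked there in both H3K27me3 libraries. Of the 369, 368 were marked in both, Bmi1 being the exception. Another 75 marked genes had Suz12 within 10 kb but not at an end, 147 had it at 10 to 100 kb, and 1713 (7.92% of all genes, 74.4% of the marked) had none within 100 kb, 116 of them on X. The share of all genes, marked or not, with no Suz12 within 100 kb was not computed. Whether marked genes were more often far than other genes was therefore not tested, here or in the gene lists below. The median length under the mark within 10 kb of the gene ends was 16.2 kb in replicate 1 and 21.1 kb in replicate 2 for marked genes with Suz12, and 4.61 and 11.6 kb for those far from it. These windows cap the length, and they overlap in a short gene, where the cap is lower. Gene length was not taken into account here or for the genes named below. An H3K27me3 peak in both EPZ libraries was present at 150 of the 368 (40.8%) and at 5 of the 1713 (0.292%). In both K27M DMSO libraries the mark was called at 93.8% and 29.2%, and Ring1b had a peak at 70.4% and 12.6%. Over all 2303 marked genes these shares were 7.03% (EPZ), 41.5% (K27M) and 22.7% (Ring1b). Ring1b had a peak at 1040 of all 21631 genes. The Suz12 genes had more mark around their ends, as given above, and the part of that in these shares was not tested.

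Suz12 at gene ends was frequent among developmental regulators. The shares over all protein-coding genes, for this list and those that follow, were 1.71% with Suz12 at an end and 10.6% marked. Of all marked genes, 74.4% were far from Suz12, with none within 100 kb. Of 39 Hox genes, 30 had a Suz12 peak at an end and 37 were marked in both libraries. Hoxd3 and Hoxc4 were under the mark throughout, with 40 kb and 38.8 kb covered in either library and 19 and 16.9 kb under Suz12. Hoxb1 was marked over 21.8 and 22.5 kb with its nearest Suz12 peak 10.6 kb away, and Hoxa6 over 16 and 23.8 kb with Suz12 at 16.4 kb. No marked Hox gene was over 100 kb from Suz12.

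Among 109 other homeobox and paired-box genes, 56 had Suz12 at an end, 92 were marked, and 25 of the marked were far from Suz12. Pax2, a factor of kidney and midbrain, had 35.3 and 38.2 kb of mark around its ends in replicates 1 and 2 and 10.9 kb of Suz12. Six2, which maintains kidney progenitors, had 32.2 and 38.3 kb of mark and 8.47 kb of Suz12. Otx2, a head and forebrain factor, was marked over 24.6 and 30.1 kb with no Suz12 peak for 2267 kb. Pax9, a factor of teeth and pharyngeal pouches, had 35.8 and 39.8 kb of mark, as long as Pax2, with the nearest Suz12 peak 76.9 kb away. Otx2 and Pax9 both had Ring1b and, in K27M cells, Suz12 at a gene end, and neither had an EPZ peak there.

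Of 56 mesoderm and endoderm factors, 27 had Suz12 at an end and 42 were marked, 13 of them far from Suz12. Gata2, a blood and neural zinc-finger factor, had 2.44 kb of Suz12 under 27.1 and 32.2 kb of mark. Tbx3, a T-box factor of limb and heart, had 30.1 and 31.2 kb of mark with Suz12 at 152.1 kb. Tcf21, a bHLH factor of epicardium, had 22.3 and 22.9 kb with Suz12 3460 kb away, and was one of the 5 far genes with a peak in both EPZ libraries. Osr2, a zinc-finger factor of palate and limb, had 22.2 and 27.2 kb with Suz12 13490 kb away.

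Neuronal differentiation genes were marked at 36 of 51, with Suz12 at an end of 16 and 14 of the marked far from it. Slc32a1, the vesicular GABA transporter, had 25.6 and 26.7 kb of mark and 8.25 kb of Suz12, whereas Neurog2, a proneural bHLH factor, had 19.5 and 22.9 kb of mark with Suz12 1560 kb away. Ion channels and neurotransmitter receptors were marked at 40 of 68, with Suz12 at 13 and 26 far. Drd2, a dopamine receptor, had 12.1 and 28.8 kb of mark with no Suz12 for 3908 kb. Genes of the Wnt, Hedgehog, Fgf, Bmp and TGF-beta pathways were marked at 44 of 75, with Suz12 at 18 and 20 far. Wnt10a had 30.4 and 31 kb of mark around 1.85 kb of Suz12, and its neighbour Wnt6 had 17.1 and 24.4 kb with Suz12 17.1 kb away. Of 39 imprinted genes, 19 were marked, 5 had Suz12 at an end and 7 of the marked were far. Igf2, a fetal growth factor, had 17.5 and 25.1 kb of mark and a Suz12 site inside the gene rather than at an end.

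Lists of neural, vascular and housekeeping genes are set here against the 10.6% of all genes marked and the 1.71% with Suz12 at an end. Of 39 neural stem and glial progenitor genes, 2 were marked (5.13%), and Id4 alone had Suz12, with 1.21 kb. The other was Prom1, with 1.99 and 15.3 kb of mark and Suz12 6163 kb away. Of 25 astrocyte and oligodendrocyte genes, 5 were marked (20%) and 0 had Suz12. Blood, endothelial and microglial markers were marked at 3 of 29 (10.3%), with Suz12 at Flt1, a VEGF receptor. None of 32 housekeeping genes was marked or had Suz12. A peak is no measure of expression, so these counts do not identify the cells.

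The remaining lists each had at most 1 gene with Suz12, so their shares rest on few genes. Of 18 cell cycle inhibitors, 4 were marked (22.2%) and Trp73, a p53 relative, had Suz12 (5.56%). Cdkn2a, which encodes the p16 and Arf tumour suppressors, had 22.9 and 29.6 kb of mark with the nearest Suz12 peak 334.7 kb away, and Cdkn2b was unmarked in both libraries. Of 34 Polycomb genes, 4 were marked (11.8%), and Bmi1 alone had Suz12 (2.94%). Germ cell and meiosis genes were marked at 7 of 41 (17.1%) with Suz12 at 0. Sycp1, of the synaptonemal complex, had 13.7 and 28 kb of mark and no H3K27me3 peak at its ends in the H3WT EPZ and K27M DMSO libraries. Keratins and claudins were marked at 8 of 37 (21.6%), with Suz12 at Cldn7 (2.7%), and olfactory and vomeronasal receptors at 2 of 25 (8%), with Suz12 at 0.

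**Figure D5:**
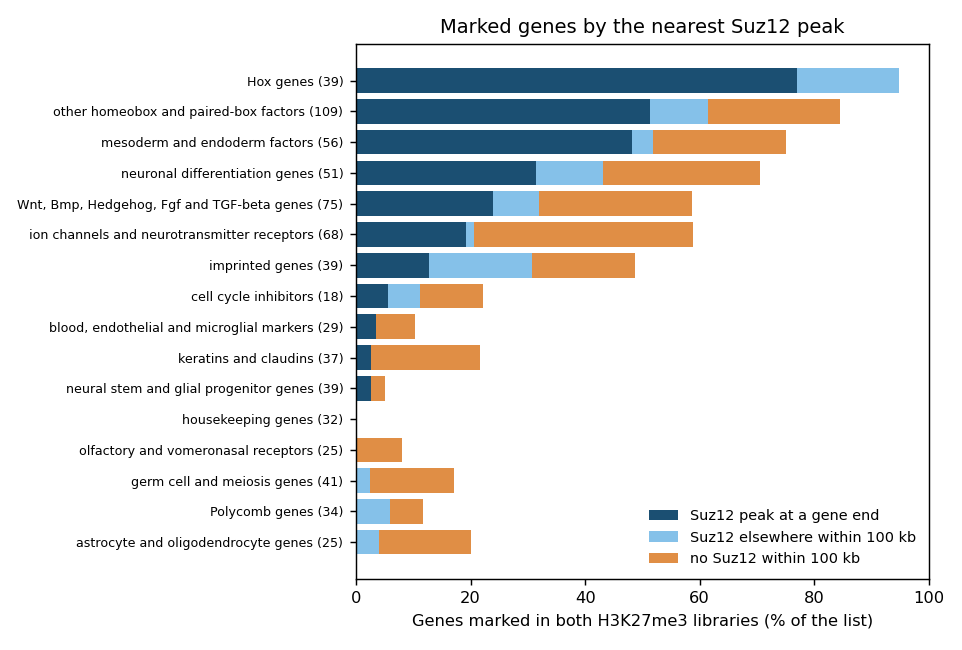
Protein-coding genes marked in both H3WT DMSO H3K27me3 libraries, as a share of each gene list (horizontal axis, %; list size in brackets), split by whether a Suz12 peak lay at a gene end, elsewhere within 100 kb, or nowhere within 100 kb. Dark blue, a Suz12 peak at an end, spans 30 of 39 Hox genes and is missing from Polycomb, germ cell, astrocyte and oligodendrocyte, olfactory and housekeeping genes, each of which has 0 marked genes with Suz12 at an end.

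Among marked genes with no Suz12 within 100 kb, the length under the mark was ranked within 10 kb of either gene end, which limits it to at most 40 kb. In a short gene the windows at the ends overlap and the limit is lower, so the ranking favours longer genes. The first 10 genes were St8sia2, Mbnl3, Stk26, Zfx, P4ha2, Alas2, Klhl15, Arid3a, Pls3 and Foxo6. St8sia2, a polysialyltransferase of neural cells, had 35.1 and 39.9 kb of mark with Suz12 3568 kb away. Mbnl3, an RNA-binding splicing factor on X, had 33.3 and 38.8 kb, and its chromosome had no H3WT Suz12 peak. Zfx, an X-linked zinc-finger factor, had 27.4 and 39.3 kb. All 10 genes had no peak at an end in either H3WT EPZ library, and neither EPZ list has a peak on X. Over all 1713 marked genes far from Suz12, 5 (0.292%) had a peak in both EPZ libraries, so its absence is not particular to these 10. Mbnl3 alone of the 6 X-linked genes had a K27M Suz12 peak at an end.

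Over all starts, promoters under a Suz12 peak had the most CpG. The 250 bases before the start had a median observed-to-expected ratio of 0.74 for 256 promoters under Suz12 (quartiles 0.564 and 0.883) and 0.574 for 1041 promoters marked with no Suz12 within 100 kb (0.36 and 0.763). Among 161 marked promoters with Suz12 within 100 kb but not on them the median was 0.582, and over all 21045 promoters it was 0.537. A ratio over 0.6 with over 50% GC was met by 66% of promoters under Suz12 (59.9 to 71.8), 44.1% of those far from it (41 to 47.2) and 41.9% of all. The quartiles of the classes overlap, as the Pax2 and Nkx6-2 sequences shown above do: Pax2, under Suz12, has 5 CpGs and Nkx6-2, far from it, has 26.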

How the data were processed

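ChIP-seq peak lists were deposited for 12 of the 14 samples. The IgG samples were not analysed here. Bowtie 1.1.2 and the mouse build mm10 are named in the submitters' processing notes, while the peak caller, threshold, control and reads per library are not given in the sources used here. The deposited lists give each peak's position, and their score column was 0 throughout, per the files as the authors deposited them, so peak height could not be used. All deposited peaks were at least 1001 bp wide, and those of 1 list that touched or overlapped were merged. A deeper library can yield more and wider peaks, so all values describe called regions.

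Overlap meant at least 1 bp. Positions of 21631 protein-coding genes and 21045 promoters of 17274 of them came from RefSeq tables of GRCm38.p6, whose chromosomes are those of mm10. Genes were scored within 1 kb of either gene end. Extension, distance and coverage were computed with Python 3.11.15, pandas 2.3.3 and numpy 2.4.6, and intervals and exact permutation tests with scipy 1.17.1. The interval functions were tested on simulated peaks. Genes in the 16 lists matched for 718 of 720 entries, and some genes are in more than 1 list.

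The members and lists were chosen with earlier results of these data known. Named were the 10 longest and 10 shortest extensions, the 6 most unequal, the 5 replicate 1 peaks with the most sites, Suz12 sites outside the mark, the 10 far genes with the longest mark, the 6 widest far regions, and up to 3 genes per list with Suz12 and 3 marked without it within 10 kb. Cdkn2a, Cdkn2b, Pdgfra, Igf2, Bmi1, Gata2 and Pax9 were always included. A few genes that fall under these rules are left unreported.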

Additional observations from a re-analysis of the deposited data

How the results depend on the processing

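The overlap of Suz12 with the mark was recomputed under 41 alternatives, each a result under 1 changed setting, besides leaving out a library. Using the transcription start alone also changed the set of genes. In 33 the value stayed within the spread of the 2 libraries (1 SD), or within 1.5 times for a count of genes. Keeping only H3K27me3 peaks of at least 3 kb raised the share of peaks with a Suz12 site from 1.84% to 6.51%, lowered the share of Suz12 sites under the mark from 99.92% to 99.45%, and lowered the ratio of median widths from 8.8 to 3.36. Keeping only Suz12 peaks of at least 2 kb raised that ratio to 11.5. The share of peaks far from Suz12 was 97% beyond 10 kb and 66.9% beyond 1 Mb, against 89.1% beyond 100 kb. Marked genes with no Suz12 within 100 kb numbered 2653 with a window of 5 kb and 1138 with the transcription start alone, against 1713. The count of 1138 took only the 17274 genes with a listed promoter, so gene set and window both changed there. They numbered between 1727 and 4218 when 1 H3K27me3 library was left out, the latter without replicate 1. Leaving out a library leaves the value of the other, which gave 0.661% to 3.02% for the share of peaks with a site, 5.23% to 17.1% for their share of length, 4.2 to 7.64 kb for the extension per side, 84.3% to 93.9% for the far share and 368 to 369 marked genes with Suz12. Joining sites into loci, an alternative chosen after seeing the data, gave 5.94 kb for the extension. No paired analysis was possible because no result rests on a fit across samples. For the extension, where 2 libraries per group were compared, the differences within a replicate number stand in the report. Unknown depth and 1 Suz12 library limit every statement about regions without a listed site.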

Other observations

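Pdgfra, the receptor for PDGF, was marked at an end in H3WT DMSO replicate 2 and not in replicate 1, with 3.99 and 1.49 kb under the mark within 10 kb of its ends. The nearest Suz12 peak was 8050 kb away. Both K27M DMSO libraries had the mark at an end of Pdgfra. Chromosome 2 had the most Suz12 peaks, 69, and chromosome 11 had 54. A start of a protein-coding gene lay within 1 kb of 259 of the 631 Suz12 sites (41%), and 479 (75.9%) overlapped a protein-coding gene. The K27M cells gave the same order of shares: 1163 and 1247 of 1252 K27M Suz12 sites lay under K27M H3K27me3, while 687 of 2351 and 715 of 17980 K27M H3K27me3 peaks had a K27M Suz12 site.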
